A study of Mus musculus with 68 samples.

Results

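This account follows 10 genes of the mouse uterus, Mthfd2, Shmt2, Aldh1l2, Phgdh, Psat1, Psph, Asns, Chac1, Trib3 and Atf5, which are known targets of the transcription factor ATF4. They were chosen by name, with earlier results of these data known. Each had 1 probe set annotated to exactly that symbol, and they are 10 of the 30142 genes tested. Their counts beside those of all genes are therefore a description. Uterine RNA of ovariectomized mice was hybridised to 68 single-colour Affymetrix arrays, 42 of them from wild types, after vehicle (100 ul saline), estradiol (E2, 250 ng) or insulin-like growth factor 1 (IGF1). E2 and IGF1 were each sampled at 2 h and 24 h, and vehicle at 24 h only, so both times were compared with the same 24 h vehicle arrays. The design asks whether the uterine response to IGF1 needs estrogen receptor alpha, the product of Esr1.

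There were 5 mouse lines in 3 sets, each line with all 5 treatments. The first set was C57Bl6 wild type bought from a supplier (14 arrays). The second set was Ex3aERKO, which is Esr1-null (11 arrays), with its wild-type littermates (14 arrays). The third set was ERaUtcKO, Esr1f/f;PgrCre+ (15 arrays), with its wild-type littermates (14 arrays). In ERaUtcKO the Cre recombinase is driven by the progesterone receptor promoter, so Esr1 is deleted only in cells that have used that promoter. Of the 25 groups, 18 had 3 arrays and 7 had 2, because the submitters left out 1 array of each of those 7 as an outlier in a principal component analysis. IGF1 was given as 50 ug by injection or from an osmotic pump at 0.5 mg/ml, and the labels do not say which mice received which, nor the age of the mice. The labels do not describe pooling either, so p-values measure the spread between these samples.

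ATF4 is translated more when eIF2alpha is phosphorylated under amino acid shortage or endoplasmic reticulum stress, and also when the growth-factor kinase mTORC1 is active. It binds a composite element with C/EBP partners, and its targets supply amino acids and folate-bound carbon units. Phgdh, Psat1 and Psph encode the successive enzymes from a glycolytic intermediate to serine. Shmt2, Mthfd2 and Aldh1l2 encode mitochondrial folate enzymes that split serine and carry its carbon onward. Asns makes asparagine, Chac1 breaks down glutathione, Trib3 encodes a pseudokinase that restrains ATF4 and AKT, and Atf5 encodes a related transcription factor. In the uterus of an ovariectomized mouse, E2 sets off an early wave of transcription and then growth and division of the epithelium, and IGF1 is made locally in response to E2.

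The core of the ATF4 and C/EBP composite element, TGATGNAA, was searched on both strands in the RefSeq promoters (GRCm38.p6, from 250 bases before to 50 after the start), which held 9 of the 10 genes, without Aldh1l2. It was found in 3 of the 9, against 4.51% of all 27025 genes with a promoter. All 3 matches are shown. Asns and Chac1 were 2 of the 3 genes with the largest IGF1 response at 2 h, but Mthfd2, with the largest, had no match. Shmt2, Psat1, Phgdh, Psph and Atf5 had none either. Capitals mark the matched bases, which read in the reverse complement in Chac1 and Trib3. The Asns stretch is chr6:7693210-7693329 on the minus strand, the Chac1 stretch chr2:119350992-119351141 on the plus strand, and the Trib3 stretch, which lies just after the start, chr2:152344028-152344057 on the minus strand.
Asns: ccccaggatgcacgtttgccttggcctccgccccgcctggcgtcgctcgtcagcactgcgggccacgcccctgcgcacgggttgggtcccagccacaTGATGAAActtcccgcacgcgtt
Chac1: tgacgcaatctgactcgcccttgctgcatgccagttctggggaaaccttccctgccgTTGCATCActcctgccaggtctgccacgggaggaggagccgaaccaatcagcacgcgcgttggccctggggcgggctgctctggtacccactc
Trib3: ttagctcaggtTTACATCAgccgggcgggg
The MYC-type E-box CACGTG was found in 0 of the 9 (8.09% of all genes). The consensus estrogen response element (GGTCA, any 3 bases, TGACC) was likewise found in 0 of the 9 (0.074% of all genes). These letters are a description of this window and say nothing of binding.

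The 3 sets sat at different overall levels, with array medians of 6.43 to 6.60 in C57Bl6, 5.82 to 6.15 in the Ex3aERKO experiment and 6.26 to 6.62 in the ERaUtcKO experiment (log2 intensity), so each response was taken against the vehicle arrays of the same set. Esr1 was lower than in littermates by 2.39 ± 0.19 (SE, log2) in vehicle-treated Ex3aERKO (limma adjusted p = 1.8e-06) and by 1.21 ± 0.11 in ERaUtcKO (3.66e-07). Smooth muscle, stromal, endothelial and epithelial markers had median vehicle levels at or above the 77.9th percentile of all genes in every wild-type set. Transcripts of other tissues varied between single arrays. The mean of 5 adipocyte genes ranged from 6.62 to 11.12 over the arrays named below, and that of 5 liver genes reached 13.31 on an ERaUtcKO IGF1 array but stayed between 5.05 and 5.42 on all arrays of the Ex3aERKO experiment. None of these lists sat at 0, since the scale gives a background value to every probe set.

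In wild-type uteri, IGF1 raised all 10 genes within 2 h. The increase was largest for the mitochondrial folate enzyme Mthfd2 (7.28-fold), followed by Asns (5.67-fold) and Chac1 (5.21-fold). Among all genes tested, 16.9% were higher and 19.0% lower after IGF1 at 2 h, and the median difference of the 10 genes was 1.02 (log2) against -0.04 for all genes.

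On single arrays, Mthfd2 read 7.09, 6.93 and 7.27 after vehicle and 10.24 and 10.04 after IGF1 at 2 h in C57Bl6 (log2 intensity). In the Ex3aERKO littermates it read 5.87 and 5.98 after vehicle and 8.27, 9.75 and 8.88 after IGF1. In the ERaUtcKO littermates the values were 6.61, 6.37 and 6.52 after vehicle, and 8.78 and 9.07 after IGF1. Every IGF1 array lay above every vehicle array of its set, and the difference over the 3 sets was 2.86 ± 0.14 (SE, log2; limma adjusted p = 7.65e-19). The other mitochondrial folate enzymes moved less. Shmt2, which splits serine into glycine and a carbon unit, rose by 0.70 ± 0.17 (0.000774), and Aldh1l2, which oxidises formyl-tetrahydrofolate, by 0.59 ± 0.16 (0.00295).

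The serine synthesis enzymes differed in size of response. Psat1, the transaminase, rose 2.90-fold (1.53 ± 0.17, adjusted p = 1.78e-09), and Phgdh, which commits carbon to serine, rose 2.18-fold (1.12 ± 0.14, 1.96e-08). Psph, the last step, rose by only 0.22 ± 0.09 (0.0438). The call on Psph was lost when any 1 of 7 of the 15 arrays compared was left out, namely C57Bl6 IGF1 replicate 2, vehicle replicates 2 and 3 of both littermate groups, and IGF1 replicates 1 and 2 of the Ex3aERKO littermates (adjusted p up to 0.17).

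Among the amino acid and stress genes, Asns read 8.31, 8.20 and 8.25 after vehicle and 11.10 and 10.94 after IGF1 in C57Bl6. The Ex3aERKO littermates read 6.83 and 7.07 for Asns against 9.10, 11.10 and 9.06, and the ERaUtcKO littermates 7.43, 7.80 and 7.49 against 9.33 and 9.20. The groups did not overlap in any set, and the difference was 2.50 ± 0.22 (limma adjusted p = 1.94e-12). Chac1 rose by 2.38 ± 0.25 (2.33e-10), Atf5 by 0.92 ± 0.19 (0.000152) and Trib3 by 0.59 ± 0.11 (2.51e-05).

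IGF1 replicate 2 of the Ex3aERKO littermates had the highest value of its group for all 10 genes, and its adipocyte genes averaged 11.12 against 8.55 and 7.74 on the other arrays of the group and 7.98 and 7.95 after vehicle. None of the 5 adipocyte genes was called in the wild-type IGF1 comparison at 2 h. In C57Bl6 those genes averaged 7.34 and 7.44 after IGF1 against 9.04, 7.28 and 6.62 after vehicle, and Mthfd2, Asns and Chac1 rose there by 3.04, 2.77 and 3.47. With the mean of the adipocyte genes in the model, or without the 4 wild-type arrays where it exceeded 9.5, 9 of the 10 genes were called higher, Psph being the exception. Of the uterine markers, 6 of 8 smooth muscle genes were higher and 1 lower after IGF1 at 2 h (median 0.76), and 3 of 9 stromal genes higher and 2 lower (-0.15), and their part in the result was not tested. All 5 liver genes were lower after IGF1 at 2 h, and with their mean in the model 9 of the 10 were called, without Aldh1l2 (0.29, adjusted p = 0.28).

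**Figure D1:**
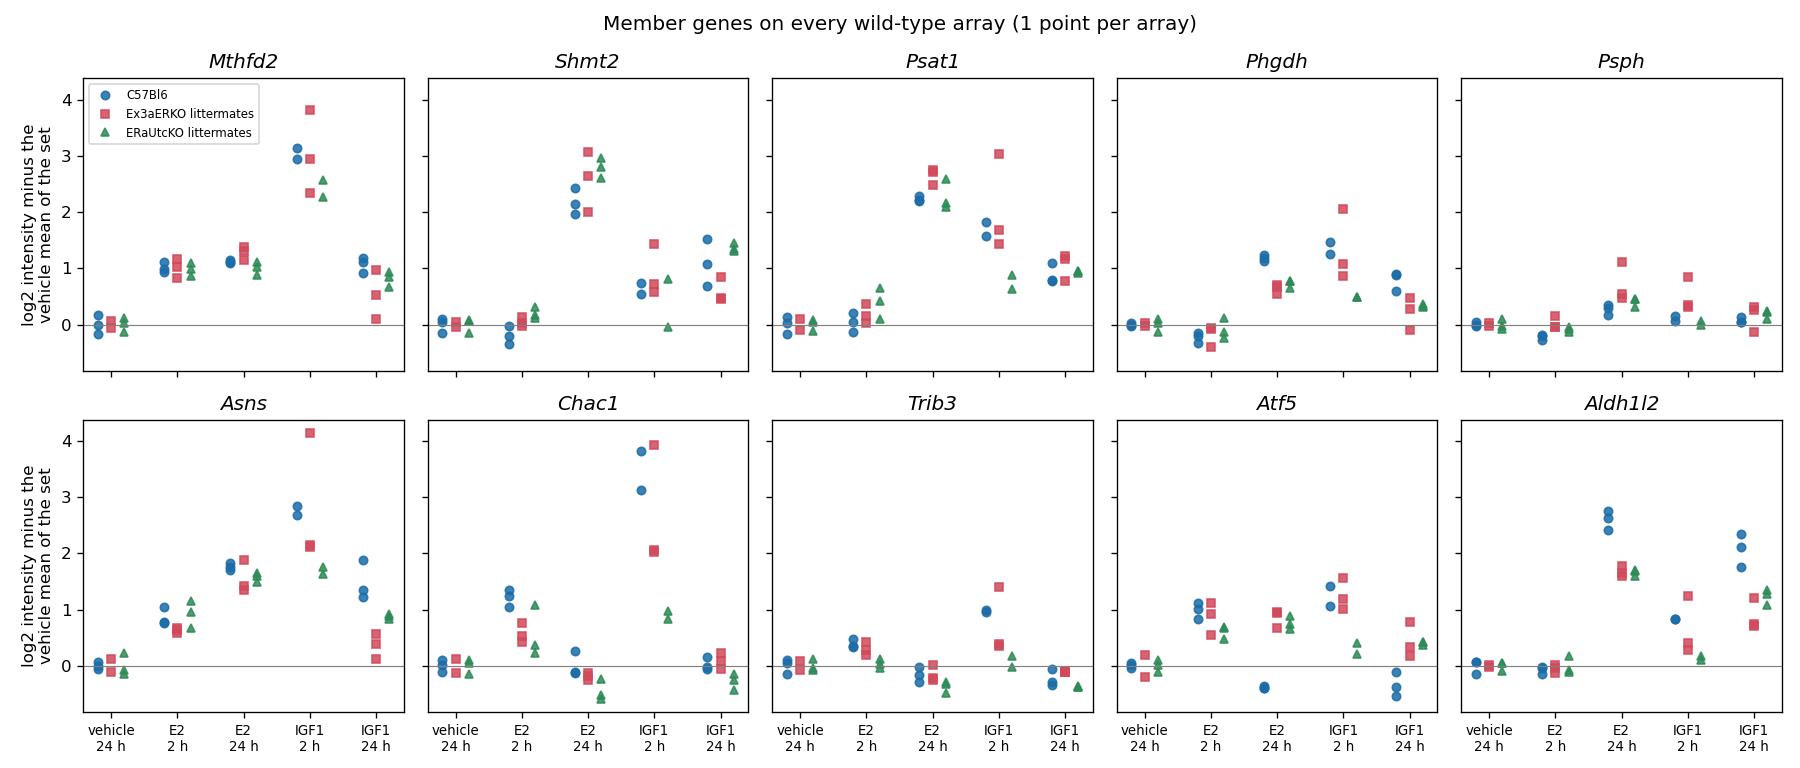
Each panel plots 1 gene, with treatment and time on the x axis and log2 intensity minus the vehicle mean of the same set on the y axis. Each point is 1 wild-type array, with colour and shape for the set. Mthfd2, Asns and Chac1 peak after IGF1 at 2 h, while Shmt2 and Aldh1l2 peak after E2 at 24 h.

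E2 at 2 h raised 4 of the 10 genes, Mthfd2 (2.00-fold), Asns (1.77-fold), Atf5 (1.74-fold) and Chac1 (1.71-fold). Among all genes, 17.2% were higher and 22.8% lower in this comparison, and the median of the 10 was 0.21 against -0.05 (log2). Mthfd2 read 8.21, 8.08 and 8.04 in C57Bl6, 7.09, 6.75 and 6.95 in the Ex3aERKO littermates and 7.49, 7.59 and 7.37 in the ERaUtcKO littermates, each above all vehicle arrays of its set. The difference was 1.00 ± 0.13 (limma adjusted p = 3.71e-08), and within the sets it was 1.01, 1.00 and 0.98. Asns rose by 0.82 ± 0.20 (0.000842), Atf5 by 0.80 ± 0.18 (0.000319) and Chac1 by 0.78 ± 0.23 (0.00605). Of the serine synthesis enzymes none passed, with Psat1 at 0.18, Psph at -0.11 and Phgdh at -0.16. Shmt2 (0.02) and Aldh1l2 (-0.03) stood at the vehicle level, and Trib3 at 0.23 missed the threshold (0.0668). In the same comparison all 9 stromal genes were lower (median -1.37, led by Nr2f2 at -2.66, Col3a1 at -1.91 and Hoxa10 at -1.86), 4 of 8 smooth muscle genes were higher and 2 lower (0.40), and all 5 liver genes were lower (-1.14). Their part in the result was not tested.

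E2 at 24 h raised 7 of the 10, now led by the mitochondrial enzymes Shmt2 (5.75-fold) and Aldh1l2 (4.0-fold) and by Psat1 (5.15-fold). Asns rose 3.13-fold, Mthfd2 2.20-fold, Phgdh 1.82-fold and Psph 1.36-fold. At this time 24.5% of all genes were higher and 31.7% lower, and the median of the 10 was 1.00 against -0.07 (log2).

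Shmt2 read 9.10, 8.85 and 9.05 after vehicle and 11.14, 11.43 and 10.97 after E2 at 24 h in C57Bl6. In the Ex3aERKO littermates Shmt2 read 7.07 and 7.15 against 9.11, 10.18 and 9.76, and in the ERaUtcKO littermates 6.82, 7.03 and 7.04 against 9.94, 9.57 and 9.78. No E2 array overlapped the vehicle arrays of its set, and the difference was 2.52 ± 0.16 (limma adjusted p = 5.06e-17). Psat1 showed a like separation. Its E2 arrays at 24 h read 10.81, 10.88 and 10.79 in C57Bl6 (vehicle 8.43, 8.63 and 8.73), 9.31, 9.58 and 9.54 in the Ex3aERKO littermates (6.73 and 6.93) and 10.15, 9.66 and 9.73 in the ERaUtcKO littermates (7.45, 7.64 and 7.60). The Psat1 difference was 2.36 ± 0.16 (1.31e-15).

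Aldh1l2 rose by 2.00 ± 0.15 (limma adjusted p = 1.42e-14), Asns by 1.65 ± 0.20 (4.75e-09), Mthfd2 by 1.14 ± 0.13 (1.5e-09), Phgdh by 0.86 ± 0.13 (6.09e-07) and Psph by 0.45 ± 0.08 (9.24e-06). Chac1 was at -0.22 (0.443) and Atf5 at 0.38 (0.0674). Trib3 was lower by 0.24 ± 0.10 (0.0421), a call that was lost when any 1 of 10 of the 17 arrays compared was left out (adjusted p up to 0.106). Those were vehicle replicate 3 and E2 replicates 2 and 3 of C57Bl6, vehicle replicate 2 and E2 replicates 2 and 3 of the Ex3aERKO littermates, and all vehicle arrays and E2 replicate 3 of the ERaUtcKO littermates. Quantile normalization and centring also ended it. At 24 h, 9 of 10 epithelial genes (median 2.00) and 11 of 11 proliferation genes (median 3.05) were also higher. So were 6 of 8 smooth muscle genes (median 0.88, Actg2 2.49) and 5 of 9 stromal genes, with 2 lower (median 0.48, Col1a1 3.13, Col3a1 2.14, Dcn -1.11). Of 6 lymphocyte genes 5 were lower (-0.47), as were 4 of 7 endothelial genes (-0.18) and 2 of 6 macrophage genes. The part of these markers in the result was not tested. All 5 liver genes and 2 of 5 adipocyte genes were lower, and with the liver genes in the model Atf5 passed too (0.66, 0.018). In whole tissue a larger share of a cell type and more RNA per cell cannot be told apart.

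IGF1 at 24 h raised 6 of the 10, against 19.3% of all genes higher and 21.6% lower, with a median of 0.63 against -0.06. Aldh1l2 rose most, by 1.42 ± 0.15 (2.67-fold, limma adjusted p = 6.35e-10), followed by Shmt2 at 1.02 ± 0.16 (1.11e-06), Psat1 at 0.94 ± 0.16 (1.09e-05), Asns at 0.92 ± 0.20 (0.00031), Mthfd2 at 0.81 ± 0.13 (4.21e-06) and Phgdh at 0.45 ± 0.13 (0.00572). Chac1 (-0.06), Psph (0.11), Atf5 (0.13) and Trib3 (-0.24, 0.0524) did not pass. The Atf5 value averages sets of opposite sign, -0.35 in C57Bl6, 0.43 in the Ex3aERKO littermates and 0.40 in the ERaUtcKO littermates, the last of them called (0.03). The proliferation genes were again all higher (11 of 11, median 1.41), as were 5 of 10 epithelial genes, all 8 smooth muscle genes (median 0.96, Actg2 2.57), 7 of 9 stromal genes with 1 lower (0.57), 4 of 6 macrophage genes (0.61, Mrc1 1.21) and 2 of 5 neutrophil genes (S100a8 2.47 and S100a9 2.08). The part of these markers in the result was not tested. Of the 5 liver genes 4 were lower. With the liver genes in the model Phgdh no longer passed (0.25, 0.244).

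The 2 hormones were then compared directly, without the vehicle arrays. At 2 h, 9 of the 10 genes were lower after E2 than after IGF1, against 12.4% of all genes lower and 9.6% higher. Mthfd2 was lower by 1.87 ± 0.14 (log2; limma adjusted p = 2.74e-14), Asns by 1.68 ± 0.21, Chac1 by 1.61 ± 0.24, Psat1 by 1.35 ± 0.17 and Phgdh by 1.28 ± 0.14. The differences were smaller for Shmt2 (-0.68 ± 0.16, 0.00126), Aldh1l2 (-0.62 ± 0.16, 0.0022) and Psph (-0.33 ± 0.08, 0.00218). For Atf5 the difference was -0.12 (95% interval -0.50 to 0.26), which does not show that the hormones act alike on it. Trib3 (-0.36) lost its call without IGF1 replicate 2 of the Ex3aERKO littermates (-0.23, adjusted p = 0.0518).

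At 24 h the direction was the opposite, with 6 of the 10 higher after E2 than after IGF1 and none lower (15.3% and 12.9% of all genes). Shmt2 was higher by 1.50 ± 0.15 (limma adjusted p = 2.31e-10), Psat1 by 1.42 ± 0.16 (2.62e-09), Asns by 0.73 ± 0.20, Aldh1l2 by 0.58 ± 0.15, Phgdh by 0.41 ± 0.13 and Psph by 0.33 ± 0.08. Mthfd2 was at 0.33 (0.0518), Atf5 at 0.25 (0.331), Trib3 at 0.00 (0.99) and Chac1 at -0.16 (0.689).

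Between the times, single genes moved in opposite directions. After IGF1, 7 of the 10 were lower at 24 h than at 2 h (15.2% of all genes were lower, 20.1% higher). They were Chac1 (-2.44 ± 0.24, limma adjusted p = 7.9e-11), Mthfd2 (-2.06 ± 0.14, 4.19e-15), Asns (-1.58), Trib3 (-0.83), Atf5 (-0.78), Phgdh (-0.67) and Psat1 (-0.59). Aldh1l2 was higher at 24 h (0.83 ± 0.16, 3.37e-05), and Shmt2 (0.33, 0.118) and Psph (-0.11, 0.359) did not pass. After E2, 6 were higher at 24 h than at 2 h and 3 lower (27.1% and 24.1% of all genes). Those higher were Shmt2 (2.50), Psat1 (2.18), Aldh1l2 (2.03), Phgdh (1.02), Asns (0.82) and Psph (0.56), and those lower were Chac1 (-0.99 ± 0.23, 0.000252), Trib3 (-0.47) and Atf5 (-0.41 ± 0.17, 0.0455), with Mthfd2 at 0.14 (0.391). The Atf5 difference was lost without any 1 of 8 arrays (adjusted p up to 0.114), namely the 3 E2 arrays of C57Bl6 at either time, E2 2 h replicate 3 and E2 24 h replicate 1 of the Ex3aERKO littermates. It was 0.07 without the C57Bl6 set. In the ERaUtcKO littermates alone, IGF1 at 24 h against 2 h gave 0.18 for Psat1 and 0.10 for Atf5.

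**Figure D2:**
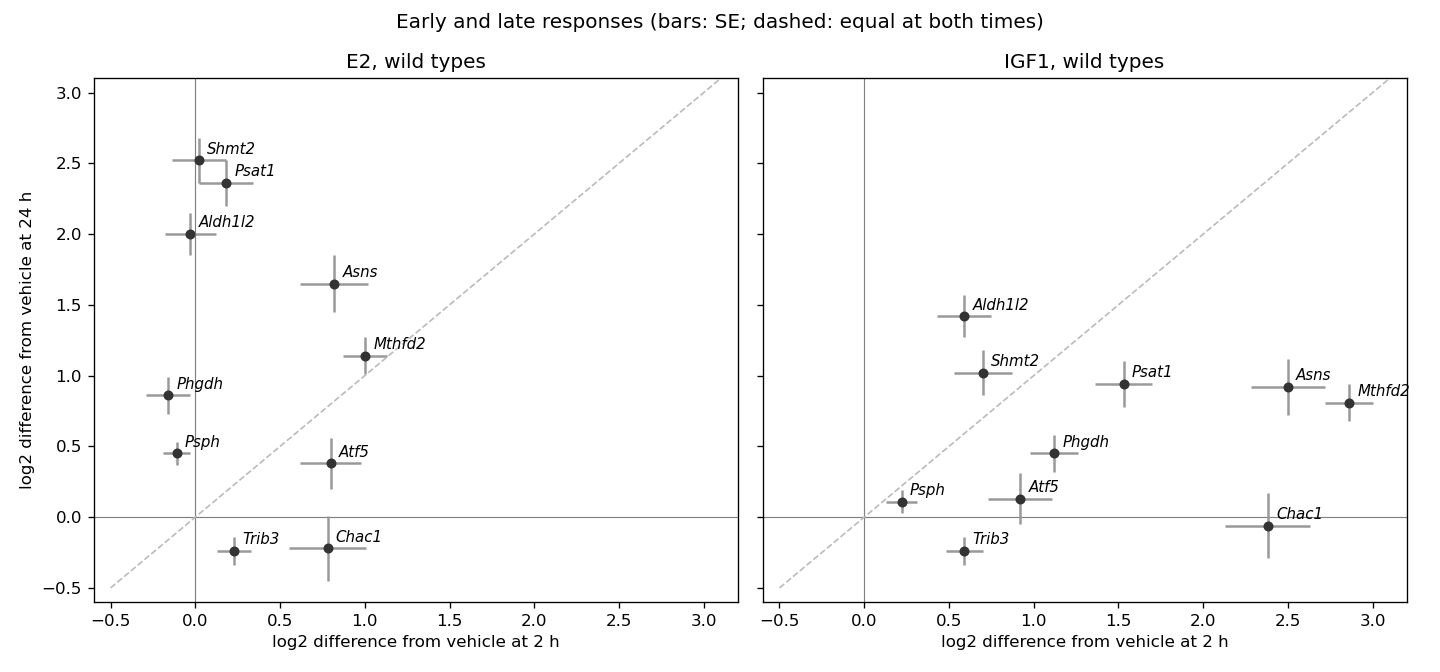
The log2 difference from vehicle at 2 h (x axis) is set against that at 24 h (y axis) for each gene in wild types, for E2 on the left and IGF1 on the right, with SE bars and a dashed line where both times are equal. Shmt2, Psat1 and Aldh1l2 lie near 0 on the 2 h axis for E2, and Mthfd2, Asns and Chac1 lie far right for IGF1. Both axes share the same vehicle arrays.

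The wild-type sets did not respond alike for every gene. A test of the treatment by set difference passed for Chac1 (limma adjusted p = 0.00335) and Atf5 (0.0348) after IGF1 at 2 h, against 1.14% of all genes. Chac1 rose by 3.47 in C57Bl6, 2.67 in the Ex3aERKO littermates and 0.90 in the ERaUtcKO littermates, each of them called. Its IGF1 arrays read 6.67 and 6.53 in the ERaUtcKO littermates against 5.75, 5.80 and 5.54 after vehicle. Atf5 rose by 1.24 and 1.26 in C57Bl6 and the Ex3aERKO littermates, and stood at 0.30, not called, in the ERaUtcKO littermates. In those littermates, whose IGF1 group had 2 arrays, Mthfd2 (2.42), Asns (1.69), Chac1 (0.90) and Psat1 (0.76) passed within the set. The other members did not, which with so few arrays does not show that they failed to respond.

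For E2 at 24 h the sets differed for Aldh1l2 (limma adjusted p = 0.00752) and Atf5 (0.000442), against 16.2% of all genes. Atf5 read 8.87, 8.87 and 8.90 after E2 in C57Bl6, below its vehicle arrays at 9.27, 9.31 and 9.22, while it was above vehicle by 0.86 and 0.76 in the Ex3aERKO and ERaUtcKO littermates. Aldh1l2 rose in all 3 sets, by 2.60, 1.68 and 1.66. After IGF1 at 24 h the sets again differed for Aldh1l2 (0.00919) and Atf5 (0.036), against 5.56% of all genes, with Aldh1l2 at 2.07 in C57Bl6, 0.89 in the Ex3aERKO littermates and 1.24 in the ERaUtcKO littermates, and Atf5 below vehicle in C57Bl6 (-0.35) and above it in both littermate groups (0.43 and 0.40). No member differed between the sets for E2 at 2 h (2.07% of all genes). The mean of the liver genes on the C57Bl6 vehicle arrays was 12.04, 10.43 and 9.93, and 6.46 to 9.75 on the treated ones. Its part in the differences between sets was not tested.

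Other genes of the pathway were counted in lists chosen by function, also with earlier results of these data known. Of 23 measured genes of serine and folate metabolism that are no members, 6 were higher and 10 lower after E2 at 2 h (median -0.12), and 14 and 4 after E2 at 24 h (0.37). After IGF1 the counts were 10 and 4 at 2 h (0.14), and 13 and 3 at 24 h (0.18). The mitochondrial partner Mthfd1l, which releases formate, did not pass after E2 at 2 h (0.05) but rose by 1.70 at 24 h, and by 1.35 and 1.11 after IGF1. The cytosolic Mthfd1 rose in all 4 comparisons, by 1.41, 1.84, 0.98 and 0.73 in the same order. Shmt1, the cytosolic counterpart of Shmt2, rose by 0.92 after E2 at 24 h and was lower at 2 h (-0.19), and its values after IGF1 were 0.14 and 0.09. Mthfd2l was lower after E2 (-0.36 and -0.30), and Aldh1l1 was called in none of the 4. Tyms, which makes thymidylate, rose by 2.06 ± 0.11 after E2 and by 1.18 after IGF1 at 24 h, and Cth, of cysteine synthesis, fell by 1.10 ± 0.10 after E2 at 2 h.

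Of 26 other ATF4 target genes, 21 were higher and 1 lower after IGF1 at 2 h (median 0.75), with the amino acid transporters Slc7a1 (2.65 ± 0.19) and Slc7a5 (2.46 ± 0.23) and the angiogenic factor Vegfa (2.54 ± 0.16) the largest. After E2 at 2 h the counts were 15 and 4 (0.38), led by Slc7a5 (4.66 ± 0.21), Vegfa (3.85 ± 0.15) and Ppp1r15a (2.61 ± 0.09), a phosphatase subunit that acts on eIF2alpha. At 24 h they were 14 and 5 after E2 (0.35) and 3 and 5 after IGF1 (0.11), with Aldh18a1, of proline synthesis, the largest (2.13 and 1.39). The stress factor Ddit3 separated the hormones at 2 h. It was at -0.20 after E2 and 1.34 after IGF1, a direct difference of -1.54 ± 0.12 (limma adjusted p = 1.41e-13). At 24 h it was lower than after vehicle with both, by -0.90 after E2 (1.19e-08) and -0.34 after IGF1 (0.0167).

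A list of 11 measured tRNA synthetases and the tRNA export factor Xpot was called higher in 10 of 12 after E2 at 2 h (median 0.67) and in 12 of 12 after E2 at 24 h (1.36), IGF1 at 2 h (1.54) and IGF1 at 24 h (0.65). Directly compared, 11 of the 12 were lower after E2 than IGF1 at 2 h (-0.95), and all 12 were higher at 24 h (0.67). Gars was the largest after E2 at 24 h (2.00) and Tars after IGF1 at 2 h (2.14). Of 11 genes of the unfolded protein response, mostly chaperones but with Xbp1, Herpud1 and Edem1 among them, 9, 9, 10 and 9 were higher and 1, 1, 1 and 0 lower after E2 at 2 h and 24 h and IGF1 at 2 h and 24 h. The gene that was lower was the chaperone Dnajb9, at -0.26, -0.26 and -0.81.

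The Atf4 transcript itself rose after both hormones at 2 h. It was higher by 2.05 ± 0.15 after E2 (limma adjusted p = 4.19e-15) and by 2.09 ± 0.16 after IGF1 (4.65e-14). The direct difference was -0.04, with the upper end of its 95% interval at 0.27, which does not show that the hormones act alike on Atf4. At 24 h Atf4 was higher by 0.77 ± 0.15 after E2 (limma adjusted p = 2.09e-05) and 0.47 ± 0.15 after IGF1 (0.00905). Myc, another regulator of serine synthesis, rose by 1.13, 1.24, 1.35 and 0.41 after E2 at 2 h and 24 h and IGF1 at 2 h and 24 h. The arrays measure RNA, so ATF4 protein is not analysed here.

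In Ex3aERKO uteri, none of the 10 genes passed after E2. At 2 h, 0.116% of all genes were higher and 0.0332% lower, and at 24 h 0% and 0%. By unadjusted p under 0.05, 4166 genes but none of the 10 passed at 24 h, and a model over all 68 arrays called 1177 genes there. Shmt2 read 6.90 and 6.85 after vehicle and 6.71 and 6.98 after E2 at 24 h, a difference of -0.03 (95% interval -0.65 to 0.59). Psat1 read 7.45 and 7.60 against 7.50 and 7.34 (-0.11, -0.81 to 0.59). The knockout and littermate responses to E2 at 24 h differed for Psat1 (-2.75 ± 0.45, limma adjusted p = 0.000384), Shmt2 (-2.60 ± 0.40, 0.000215) and Aldh1l2 (-1.71 ± 0.30, 0.000761), against 16.8% of all genes. For Asns (-1.34, 0.132), Mthfd2 (-1.03, 0.112) and Psph (-0.76, 0.0504) the difference missed the threshold. At 2 h no member's response differed by this test (9.43% of all genes), with Mthfd2 at -0.85 (0.287) and Atf5 at -0.76 (0.132).

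IGF1 at 2 h raised 9 of the 10 in Ex3aERKO, against 8.61% of all genes higher and 7.09% lower. Chac1 rose 14.7-fold, Asns 12.3-fold, Mthfd2 11.7-fold and Psat1 5.28-fold. Chac1 read 5.01 and 4.99 after vehicle and 8.70 and 9.07 after IGF1, Asns 6.56 and 7.10 against 10.47 and 10.42, and Mthfd2 5.89 and 6.14 against 9.36 and 9.78. Both IGF1 arrays lay above both vehicle arrays for all 10 genes, as they did for 24.4% of all genes. The differences were 3.88 ± 0.40 for Chac1 (limma adjusted p = 2.46e-06), 3.62 ± 0.44 for Asns (1.31e-05), 3.55 ± 0.32 for Mthfd2 (8.02e-07) and 2.40 ± 0.33 for Psat1 (5.76e-05). Phgdh (1.57), Shmt2 (1.17), Aldh1l2 (1.04), Atf5 (0.98) and Trib3 (0.69) also passed, and Psph did not (0.53, 0.0704). With 2 arrays a group, the call on Trib3 was lost without any 1 of the 4 arrays (adjusted p 0.124 to 0.159), that on Shmt2 without either vehicle array (up to 0.0564), and that on Atf5 without IGF1 replicate 1 (0.0556).

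The adipocyte genes averaged 10.68 and 10.13 on those IGF1 arrays against 7.41 and 9.72 after vehicle, and 1 of the 5 was called higher (median 1.78). With their mean in the model 8 of the 10 genes were called, Trib3 no longer passing (0.52, adjusted p = 0.176). No member's response to IGF1 at 2 h differed from that of littermates, and neither did that of any other gene tested (0% by limma's adjusted p, 2247 genes at an unadjusted p under 0.05, 121 called over all 68 arrays). The intervals were wide. The difference between the responses was 1.21 for Chac1 (95% interval 0.09 to 2.34, adjusted p = 0.655), 0.81 for Asns (-0.43 to 2.05), 0.51 for Mthfd2 (-0.39 to 1.42) and 0.35 for Psat1 (-0.60 to 1.30). Without IGF1 replicate 2 of the littermates, the array with high adipocyte genes, the Chac1 difference was 1.84 and passed (0.0102).

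After IGF1 at 24 h, 2 of the 10 passed in Ex3aERKO, Psat1 (1.04 ± 0.31, limma adjusted p = 0.0216) and Aldh1l2 (0.69 ± 0.21, 0.0236), against 11.7% of all genes higher and 6.86% lower. Each call was lost without any 1 of 3 of the 5 arrays, both vehicle arrays and IGF1 replicate 3 for Psat1, or replicate 2 for Aldh1l2 (adjusted p up to 0.161 and 0.157), and with all 68 arrays in 1 model 6 passed. No member's response was called different from that of littermates (0.0133% of all genes), which does not show equal responses. In vehicle-treated mice no member differed between Ex3aERKO and littermates (2.96% of all genes did).

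In ERaUtcKO uteri, limma called 0 of the 10 after E2 at 2 h (0.398% of all genes higher, 0.0929% lower) and 0 at 24 h (0% and 0%; 1151 genes at an unadjusted p under 0.05, none of the 10 among them, and 1 gene called over all 68 arrays). Shmt2 read 6.99, 6.98 and 6.87 after vehicle and 6.80, 6.76 and 6.82 after E2 at 24 h, a difference of -0.15 (95% interval -0.46 to 0.15). At 2 h the 10 differences ran from 0.01 to 0.21. The E2 response differed from that of littermates at 24 h for 8 of the 10, against 32.9% of all genes. They were Shmt2 (-2.96 ± 0.21, limma adjusted p = 1.16e-09), Psat1 (-2.28), Aldh1l2 (-1.69), Asns (-1.68), Mthfd2 (-1.05), Atf5 (-0.86), Phgdh (-0.63) and Psph (-0.43). At 2 h it differed for Mthfd2 (-0.81 ± 0.21, 0.0116) and Atf5 (-0.56 ± 0.15, 0.0115), against 13.8% of all genes. The adipocyte genes averaged 9.53, 9.48 and 10.73 on the knockout E2 arrays at 2 h. Leaving out the 6 arrays of the experiment above 9.5 kept only the array at 9.48 in that group. The differences were then -0.84 for Mthfd2 and -0.41 for Atf5. With so few arrays that setting cannot show the part of adipocyte tissue.

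IGF1 at 2 h raised all 10 genes in ERaUtcKO, against 13.1% of all genes higher and 16.2% lower. Mthfd2 rose 12.9-fold, Chac1 7.86-fold, Asns 7.79-fold and Psat1 4.44-fold. Mthfd2 read 6.32, 6.16 and 6.30 after vehicle and 10.05, 10.18 and 9.61 after IGF1, and Chac1 read 5.50, 5.70 and 5.55 against 8.66, 8.54 and 8.48. Every IGF1 array lay above every vehicle array for all 10, against 16.3% of all genes. The differences were 3.69 ± 0.15 for Mthfd2 (limma adjusted p = 1.14e-13), 2.97 ± 0.15 for Chac1 (1.33e-12), 2.96 ± 0.22 for Asns (2.73e-10) and 2.15 ± 0.16 for Psat1 (3.27e-10), and from 0.32 to 0.94 for the others. The call on Shmt2 (0.41 ± 0.15, limma adjusted p = 0.0354) was lost without any 1 of 5 of the 6 arrays, all but IGF1 replicate 3 (up to 0.134).

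**Figure D3:**
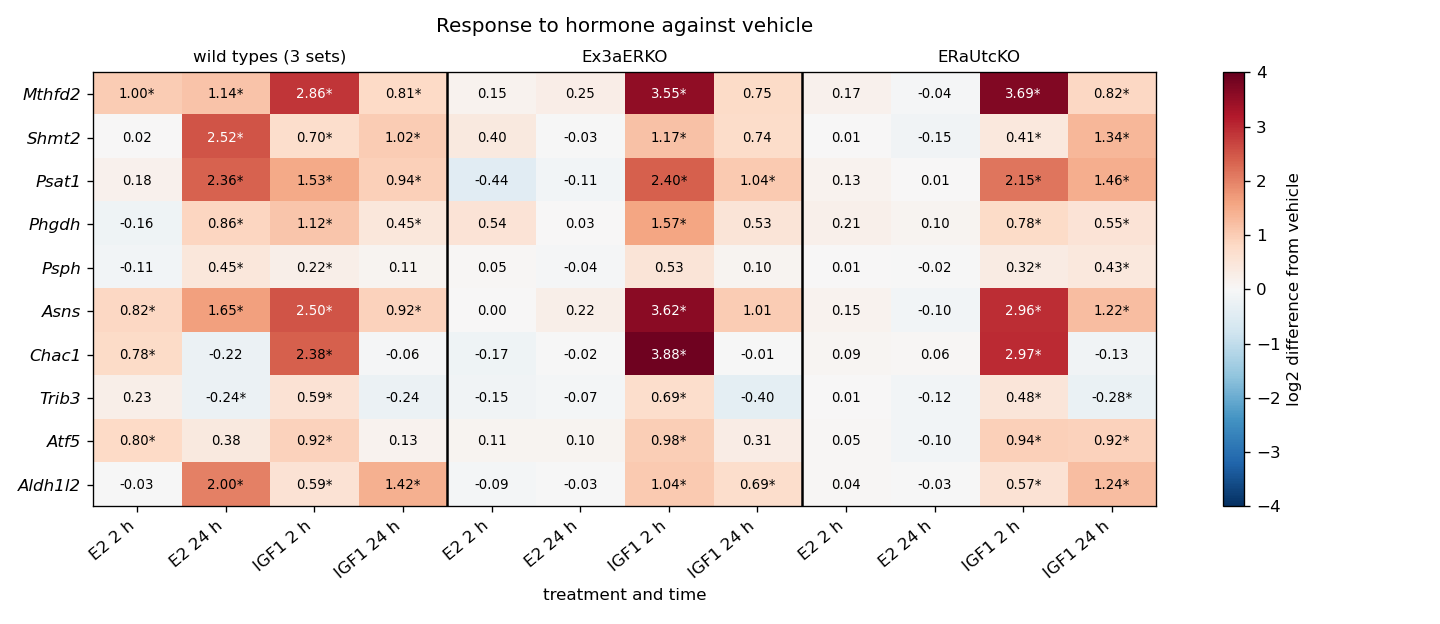
Colours and numbers give the log2 difference from vehicle for each gene (y axis) by treatment and time (x axis), in wild types and both knockouts, with an asterisk where the limma adjusted p was under 0.05. Both E2 columns of the knockouts hold no asterisk, and the IGF1 2 h columns hold 9 and 10.

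Compared with its littermates, the ERaUtcKO response to IGF1 at 2 h was larger for Chac1 (2.07 ± 0.23, limma adjusted p = 2.73e-05), Psat1 (1.39 ± 0.24, 0.00538) and Mthfd2 (1.26 ± 0.23, 0.00885), against 0.511% of all genes in either direction. The littermate response entering this difference was the smallest of the 3 wild-type sets for Chac1, Psat1 and Mthfd2, and that group had 2 arrays. The Chac1 response of ERaUtcKO, 2.97, lay between those of C57Bl6 (3.47) and the Ex3aERKO littermates (2.67). Without IGF1 replicate 1 of the littermates the Mthfd2 call was lost (0.0765). Adipocyte genes averaged 10.05 and 7.90 on the littermates' IGF1 arrays and 10.12, 8.72 and 7.75 on the knockouts'. Without the arrays above 9.5 the littermate group kept only the array at 7.90. The differences were then 1.07 for Mthfd2 and 1.31 for Psat1. With so few arrays that setting cannot show the part of adipocyte tissue. The liver genes averaged 13.31, 8.15 and 7.74 on the knockouts' IGF1 arrays and 8.32, 11.08 and 11.42 after vehicle.

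**Figure D4:**
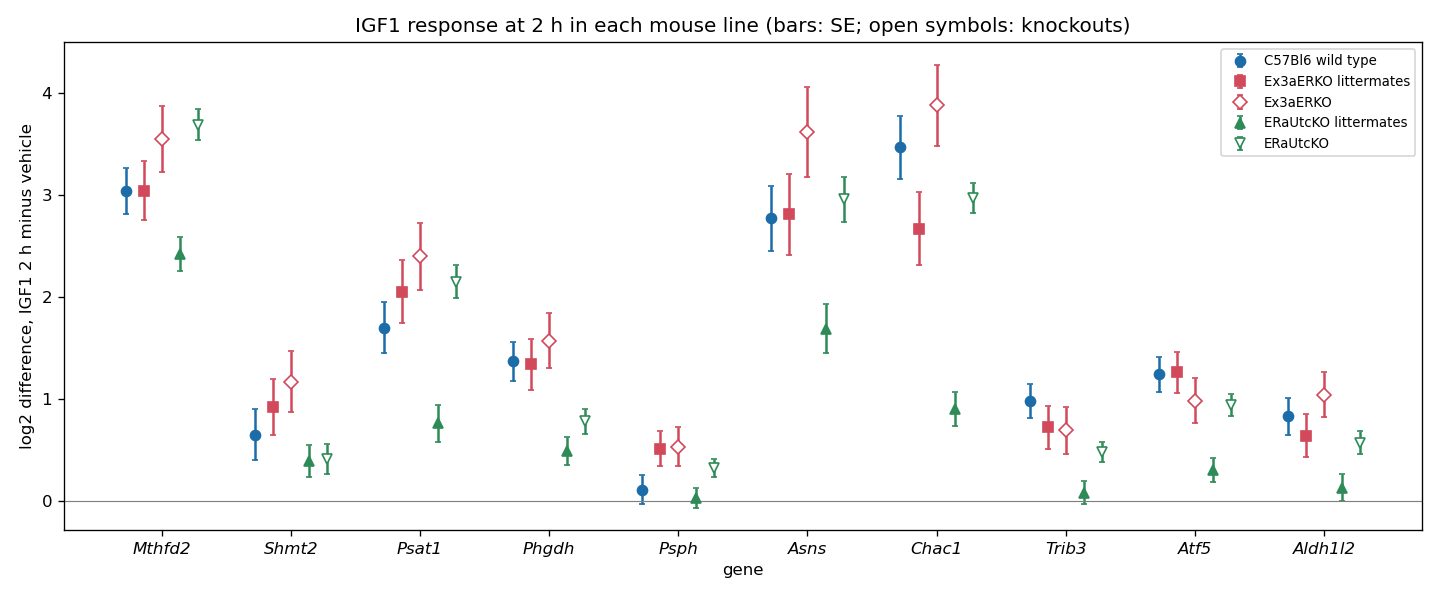
The log2 difference between IGF1 at 2 h and vehicle (y axis) is shown for each gene (x axis) in the 5 lines, with filled symbols for wild types, open symbols for knockouts and SE bars. The ERaUtcKO littermates give the lowest value for each gene, such as 0.90 for Chac1 against 2.97 in the knockout.

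At 24 h, IGF1 in ERaUtcKO raised 8 of the 10 and lowered Trib3 (16.9% of all genes higher, 15.5% lower). Psat1 rose by 1.46 ± 0.16 (limma adjusted p = 2.63e-07), Shmt2 by 1.34 ± 0.15 (2.49e-07), Aldh1l2 by 1.24 ± 0.11 (2.65e-08), Asns by 1.22 ± 0.22 (0.000113), Atf5 by 0.92, Mthfd2 by 0.82, Phgdh by 0.55 and Psph by 0.43. Trib3 fell by 0.28 ± 0.10 (0.0377), lost without any 1 of 4 of the 6 arrays, vehicle and IGF1 replicates 1 and 3 (up to 0.17). No member's response was called different from that of littermates (0.0498% of all genes), which does not show equal responses. No member was called different in vehicle-treated mice (4.17% of all genes).

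In the knockouts, Atf4 rose by 2.36 ± 0.32 in Ex3aERKO (limma adjusted p = 4.84e-05) and 2.34 ± 0.19 in ERaUtcKO (1.71e-09) after IGF1 at 2 h, but stood at 0.06 and 0.15 after E2 at 2 h. Its E2 response at 2 h was smaller than in littermates by -2.09 ± 0.44 (0.00411) and -1.75 ± 0.27 (7.63e-05). Ddit3 rose by 1.89 and 2.11, and Myc by 1.75 and 1.48, after IGF1 at 2 h. Of the other ATF4 targets 16 of 26 were higher in Ex3aERKO and 20 of 26 in ERaUtcKO, and all 12 of the list of tRNA synthetases and Xpot in both, after IGF1 at 2 h. The largest were Slc7a5 (3.50) in Ex3aERKO and Slc7a1 (3.17) in ERaUtcKO. After E2, none of the synthetases and Xpot was called in either knockout. Of the 26 other ATF4 targets, 4 were higher after E2 at 2 h in ERaUtcKO, against 0.398% of all genes. They were Slc7a5 (1.44, limma adjusted p = 3.2e-05), Vegfa (0.75, 0.00673), Gpt2 (0.74, 0.0129) and Jdp2 (0.66, 0.0129), and 0 were called at 24 h or in Ex3aERKO at either time. Of the other lists, Gldc was higher by 1.03 after E2 at 2 h in Ex3aERKO (limma adjusted p = 0.031). In ERaUtcKO after E2 at 2 h, Hspa5 was higher by 0.68 (0.0094), and Gldc at 0.50 missed the threshold (0.0521). The high adipocyte genes of those ERaUtcKO arrays apply here too, and their part was not tested.

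Over 22 groups, each expressed as its mean minus the wild-type vehicle mean of its set, the 10 genes correlated unevenly. Mthfd2 and Asns correlated at 0.95, Mthfd2 and Chac1 at 0.89 and Chac1 and Trib3 at 0.88 (Pearson r). Shmt2 and Aldh1l2 correlated at 0.88 and Psat1 and Psph at 0.89, whereas Shmt2 and Trib3 gave -0.41. The groups share arrays, treatments and vehicle baselines, so these values describe the groups only. The genes outside the 10 most like their mean pattern (each gene scaled by its SD) were Mars1 (0.94), Cars (0.94), Gars (0.94), Tars (0.93) and Faf1 (0.92), of which 4 encode tRNA synthetases. On the same measure Mthfd1l gave 0.81, Myc 0.79, Atf4 0.65, Ddit3 0.58, Shmt1 0.50, Mthfd1 0.42, Mthfd2l 0.35 and Aldh1l1 0.15.

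**Figure D5:**
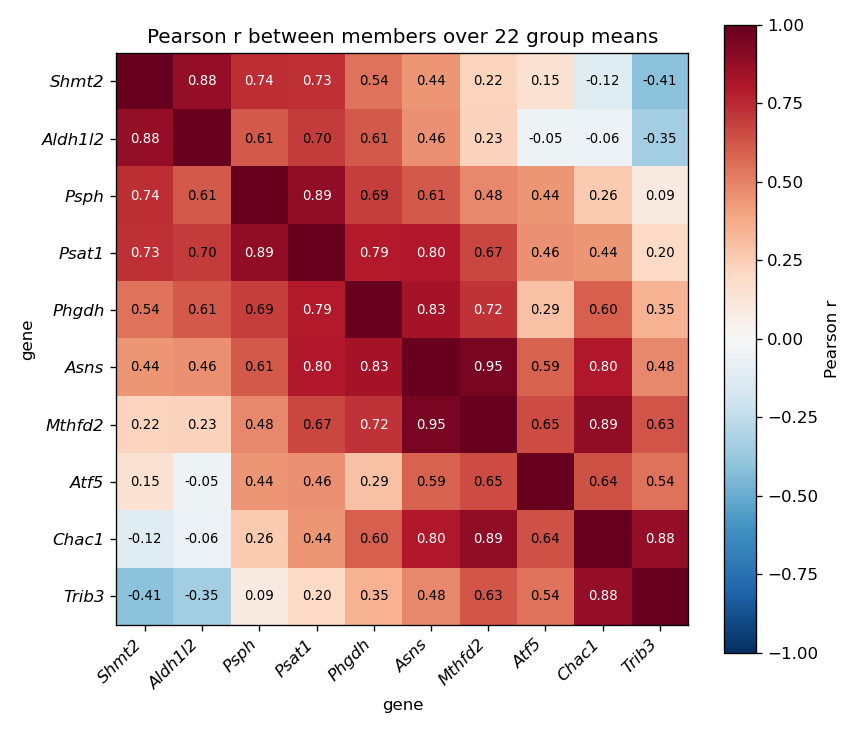
Colours and numbers give the Pearson r between each pair of the 10 genes over 22 group means, with the genes on both axes in the same order. The order was set by hand and is not an outcome of the data. Mthfd2, Asns, Chac1 and Trib3 were placed toward one end (0.95 for Mthfd2 with Asns) and Shmt2 and Aldh1l2 at the other (0.88), with -0.41 between Shmt2 and Trib3. Asns gave 0.44 with Shmt2 and 0.48 with Trib3.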

How the data were processed

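The deposited value table holds log2 intensities of 72688 probe sets on 68 arrays. The sources used here do not name the normalization. Per the labels' protocols, RNA was extracted with Trizol, cleaned with DNAse treatment, and 300 ng labelled with the Affymetrix WT Plus kit. Values were used as the authors deposited them. Of 32750 annotated probe sets 30604 had 1 symbol and 2146 several, which were left out. For 355 genes with several probe sets the one with the highest mean was kept, giving 30142 genes. Symbols were updated through RefSeq (GRCm38.p6).

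Groups came from the sample labels. limma 3.58.1 (R 4.3.3, lmFit and eBayes) was fitted to 42 wild-type arrays (treatment and mouse set), to 25 arrays of the Ex3aERKO experiment and to 29 of the ERaUtcKO experiment (1 mean per group), with Benjamini-Hochberg adjustment over all genes and a two-sided threshold of 0.05. The models were tested on simulated data. Changes of 0.5, 1.0 and 2.0 (log2) after IGF1 at 2 h were recovered in 80.6%, 97.0% and 100.0% of cases in wild types. Differences in that response between knockout and littermates were recovered in 6.0%, 43.3% and 86.4% in Ex3aERKO. In ERaUtcKO the shares were 13.4%, 61.2% and 98.5%. Differences in response that were not called do not show equal responses. Array number limits the precision.

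The rule for named genes took all 10 members, whose differences from vehicle are all in the map of responses, Atf4, Myc, Shmt1, Mthfd1, Mthfd1l, Mthfd2l, Aldh1l1 and Ddit3 (given where a result bears on them), up to 3 further called genes per list by size, and the 5 most like the members. Dnajb9, Jdp2, Gpt2, Gldc and Hspa5 were named after their values were seen. Members and lists were chosen with earlier results of these data known. Alternatives covered normalization, centring, probe sets, a filter, the variance model, all 68 arrays, a replicate block, mouse sets and single arrays. Another 3, on adipocyte and liver genes, were chosen after seeing the data.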

Additional observations from a re-analysis of the deposited data

Results flagged for a closer look

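Responses differed between the 3 wild-type sets in 6 cases, by limma's F test of treatment by set. The adjusted p was 0.00752 for Aldh1l2 and 0.000442 for Atf5 after E2 at 24 h, 0.0348 for Atf5 and 0.00335 for Chac1 after IGF1 at 2 h, and 0.00919 for Aldh1l2 and 0.036 for Atf5 after IGF1 at 24 h.

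Between knockouts and littermates the response to the same treatment differed in 16 cases (knockout minus littermate, log2). In Ex3aERKO after E2 at 24 h the differences were -1.71 for Aldh1l2, -2.75 for Psat1 and -2.60 for Shmt2. In ERaUtcKO after E2 at 2 h they were -0.56 for Atf5 and -0.81 for Mthfd2. After E2 at 24 h they were -1.69 for Aldh1l2, -1.68 for Asns, -0.86 for Atf5, -1.05 for Mthfd2, -0.63 for Phgdh, -2.28 for Psat1, -0.43 for Psph and -2.96 for Shmt2. After IGF1 at 2 h they were 2.07 for Chac1, 1.26 for Mthfd2 and 1.39 for Psat1.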

How the results depend on the processing

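Vehicle was sampled at 24 h only, and the groups hold 2 or 3 arrays. The values carry no detection calls, so signal over background was not assessed for single probe sets. Replicate numbers did not pair the arrays (median correlations of same-numbered deviations -0.142 to 0.014), and the replicate block left 255 of 260 member differences on the same side of the threshold, with Trib3 lower after E2 at 24 h in wild types going from 1 call to 0. It moved the count of all genes called from 45 to 9 for E2 at 2 h in Ex3aERKO, from 891 to 487 and from 1258 to 375 for vehicle in Ex3aERKO and ERaUtcKO, and from 15 to 4 for the ERaUtcKO difference in IGF1 response at 24 h.

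The call on Trib3 lower after E2 at 24 h was likewise 0 instead of 1 after quantile normalization and centring. It was also 0 with restriction to genes above the median level, without C57Bl6, without the ERaUtcKO littermates and with the Ex3aERKO littermates alone. Adipocyte or liver genes as a term gave 0 too (0 to 1 for single arrays). With C57Bl6 alone Atf5 was called lower, not Trib3. Trib3 lower after IGF1 at 24 h in ERaUtcKO was 0 instead of 1 after quantile normalization, centring, with all 68 arrays and with the liver term (0 to 1 for single arrays). In wild types the count lower after IGF1 at 24 h was 1 instead of 0 with C57Bl6 alone (Atf5, not Trib3). It was also 1 with all 68 arrays, without the Ex3aERKO littermates, with the ERaUtcKO littermates alone and without arrays high in adipocyte genes. Single arrays gave 0 to 1.

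For E2 at 24 h against 2 h, the count lower went from 3 to 1 with the level filter, because it did not test the other genes. It went to 0 with the Ex3aERKO littermates alone. For IGF1 at 24 h against 2 h, the count higher went from 1 to 2 with all 68 arrays, without the Ex3aERKO littermates and with the ERaUtcKO littermates alone, and to 0 with the Ex3aERKO littermates alone (1 to 2 for single arrays). With the Ex3aERKO littermates alone, E2 at 2 h raised 2 instead of 4 and IGF1 at 24 h 1 instead of 6. With the ERaUtcKO littermates alone, IGF1 at 2 h raised 5 instead of 10, and 3 instead of 9 were lower after E2 than IGF1 at 2 h, and 4 instead of 7 were lower at 24 h than at 2 h after IGF1. In this setting the spread came from that set only, unlike in the within-set values given earlier. With C57Bl6 alone, or without the Ex3aERKO littermates, 1 instead of 0 was lower after E2 at 2 h.

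With all 68 arrays in 1 model, 6 instead of 2 were higher after IGF1 at 24 h in Ex3aERKO (0 to 3 for single arrays), and its E2 response differed for 1 instead of 0 at 2 h and 7 instead of 3 at 24 h. The model called 311 instead of 45 genes for E2 at 2 h in Ex3aERKO, 1177 instead of 0 at 24 h, 4479 instead of 2841, 7942 instead of 5063, 121 instead of 0 and 211 instead of 4 for the differences in response to E2 at 2 h and 24 h and IGF1 at 2 h and 24 h, and 2033 instead of 891 for vehicle. Leaving out arrays high in adipocyte genes was an alternative chosen after seeing the data. In the ERaUtcKO experiment it left a single knockout E2 array and a single littermate IGF1 array at 2 h. Counts of genes called in that experiment are therefore not given for this setting. The liver term moved all genes called from 148 to 89 for E2 at 2 h in ERaUtcKO. For the ERaUtcKO difference in response to IGF1 at 24 h it moved them from 15 to 5. Members whose knockout response was larger went from 0 to 1 on leaving out single arrays for IGF1 at 2 h in Ex3aERKO (Chac1), and in ERaUtcKO for E2 at 24 h (Chac1, without littermate vehicle 3 or E2 3) and IGF1 at 24 h (Atf5, without knockout IGF1 2).

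The sign of a difference turned for Atf5 and Psat1, in no case from a call to an opposite call. Atf5 at 24 h against 2 h of E2 went from -0.41 to 0.07 without C57Bl6 and 0.15 with the ERaUtcKO littermates alone. With C57Bl6 alone, Atf5 was -0.39 instead of 0.38 after E2 and -0.35 instead of 0.13 after IGF1 at 24 h. With the ERaUtcKO littermates alone, IGF1 at 24 h against 2 h gave 0.18 instead of -0.59 for Psat1 and 0.10 instead of -0.78 for Atf5. The cause was not tested. The 96 fits that left out 1 array kept 2618 of 2690 member differences on the same side, with 49 losing and 23 gaining a call. All genes called ranged from 0 to 1 for E2 at 24 h in ERaUtcKO. For E2 at 2 h in ERaUtcKO they ranged from 49 to 95, against 148 with every array. The range was 3 to 163 against 15 for the ERaUtcKO difference in IGF1 response at 24 h. For vehicle in ERaUtcKO against littermates it was 627 to 2083 against 1258. Leaving out an Ex3aERKO array left a single array in some groups, so ranges of all genes called are not given there.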
